A study of Mus musculus with 2 samples.

Results

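STAT factors and their SOCS inhibitors were examined in the colon of mice without the prostaglandin E2 receptor EP4 in the intestinal epithelium. The members are the 9 genes Stat2, Stat3, Stat4, Stat5a, Stat5b, Stat6, Socs1, Socs2 and Socs3, chosen by name from 22909 genes that probes of the array could be matched to, and they were measured by 13 probes. RNA of colon tissue from Villin-Cre control mice was compared with that from Villin-Cre; EP4flox/flox mice, called EP4 cKO, on Agilent mouse expression arrays with 1 colour (Cy3). All mice carried Villin-Cre, in which the promoter of the epithelial gene Villin drives Cre recombinase, all were of the C57BL/6 strain, and the methods of the study give an age of 8 weeks. The groups differ in the floxed alleles of Ptger4, the gene of EP4, which other cells of the colon keep intact. There was 1 array per genotype, hybridized with RNA combined from 3 pools of colon, so no difference has a replicate check, no p-value is given, and each value describes these arrays only. In RNA of whole tissue, fewer cells of a type and less RNA per cell cannot be told apart.

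Cytokines and interferons bind receptor chains that carry Janus kinases, and these kinases phosphorylate STAT proteins, which pair, enter the nucleus and switch on genes. STAT2 works together with IRF9 downstream of type I and type III interferons, STAT3 downstream of the interleukin-6 and interleukin-10 families and of interleukin-22, STAT4 downstream of interleukin-12, STAT5A and STAT5B downstream of growth hormone, prolactin and interleukin-2, and STAT6 downstream of interleukin-4 and interleukin-13. SOCS proteins are made in response to the same signals and close the loop: SOCS1 and SOCS3 block Janus kinases or their receptors, and SOCS2 restrains growth hormone signalling. In the intestine, STAT3 is known for its part in epithelial repair and STAT6 for responses to worms.

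The signals are scanner intensities with the background subtracted, scaled so that the trimmed mean of each array is 2500, and the log2 ratio is that of EP4 cKO over Villin-Cre. A change means a ratio past 2-fold. Of 56593 probes, the scanner software marked 45.4% as well above background in Villin-Cre and 51.6% in EP4 cKO. A probe well above background on 1 array only gives a bound, written "at least", because its dim side was not allowed to fall under a floor, the lowest signal that counted as well above background (125 in Villin-Cre, 57.8 in EP4 cKO); a dim signal above the floor was kept. A gene is represented by its brightest probe with a value. The error given with a log2 ratio, called software error, combines the errors that the scanner software gave for the signals on the 2 arrays. The median SD over the 10 spots of each of 165 repeated probes was 0.034 on the log2 scale. Both cover the hybridization and not the mice. The targeted gene Ptger4 gave 6227 for Villin-Cre and 5661 for EP4 cKO, a log2 ratio of -0.14 that lay between -0.14 and 0.02 under 5 scalings, and its dimmer probe gave 393 and 592. Neither probe was past 2-fold, and where they lie relative to the floxed part was not examined, so the direction of every ratio below rests on the labels of the arrays.

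Of the 9 genes, 3 were higher in EP4 cKO, namely Stat2, Socs1 and Socs3, and 0 were lower. Across all 14679 genes with a value, 717 were higher, which is 4.88%, and 1171 were lower, which is 7.98%, and the median log2 ratio was -0.10. Scaling to the 75th percentile turned this split to 942 higher and 921 lower, with the same 3 members higher. For 8 of the 9 genes the brightest probe was well above background on both arrays, and their median log2 ratio was 0.05. Among the 6 STAT genes 1 was higher, 4 were measured within 2-fold, and Stat4 was too dim for Villin-Cre to give a fold; the median of the 5 measured was -0.04. Among the 3 SOCS genes 2 were higher and 1 was within 2-fold, with a median of 1.69. The genes with a change therefore comprised the STAT factor of the interferon complex and a pair of feedback inhibitors, while Stat3, Stat5a, Stat5b and Stat6 were within 2-fold.

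**Figure D1:**
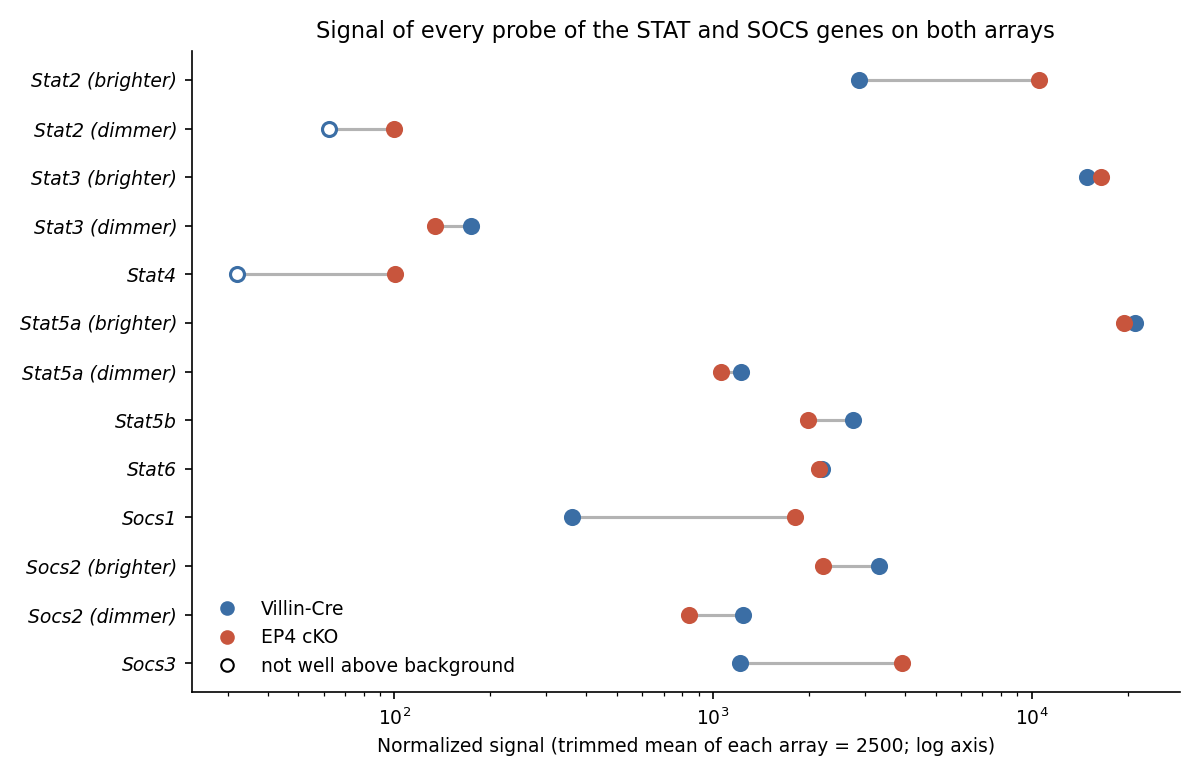
Normalized signal (log axis) of all 13 probes of the 9 STAT and SOCS genes on the Villin-Cre array (blue) and the EP4 cKO array (red). Open circles were not well above background, and the red point lies far to the right of the blue one for the brighter probe of Stat2 and for Socs1 and Socs3.

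Stat2, whose protein binds DNA with IRF9 as the interferon-stimulated complex, had the only change among the STAT genes. Its brighter probe gave 2877 for Villin-Cre and 10562 for EP4 cKO. The log2 ratio was 1.88 with a software error of 0.20, or 3.67-fold, and 98.5% of all genes had a lower ratio. The 2 probes of Stat2 did not give the same picture. The dimmer probe was not well above background for Villin-Cre, at 62.3, and was at 99.3 for EP4 cKO, which allows no fold above 1. The change of Stat2 thus rests on 1 probe.

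The promoter of Stat2 is printed because letters of both kinds of STAT element lie in it side by side. The stretch is the 250 bases before the annotated start, from RefSeq on assembly GRCm38.p6, at chr10:128270248-128270497 on the plus strand. The capitals mark first GAAA repeated 2 bases apart, read on the other strand, which is the core of the interferon-stimulated response element, and then TTC and GAA 4 bases apart, a form of the STAT palindrome.
Stat2: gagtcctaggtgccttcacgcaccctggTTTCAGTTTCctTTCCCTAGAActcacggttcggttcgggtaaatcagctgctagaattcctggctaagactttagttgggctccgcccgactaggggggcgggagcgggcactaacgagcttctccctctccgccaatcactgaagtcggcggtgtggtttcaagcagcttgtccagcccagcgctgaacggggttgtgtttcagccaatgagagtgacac
The first match covers bases 222 to 213 before the start and the second bases 210 to 201. A match is a run of letters and not a measured binding site.

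Stat3, the factor of interleukin-6 and interleukin-22 signals, was bright on both arrays and nearly level between them. Its brighter probe, designed on NM_213659, gave 14932 for Villin-Cre and 16535 for EP4 cKO, a log2 ratio of 0.15 with a software error of 0.20. The dimmer probe, designed on NM_011486, gave 174 and 134, a log2 ratio of -0.38 with a software error of 0.35. The probes differ in sign and neither was past 2-fold, and because probes differ in brightness for reasons of their own, their levels say nothing of which transcript is the more abundant.

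Stat5a and Stat5b encode closely related proteins and are neighbours on chromosome 11, where Stat3 follows them as the next coding gene. Stat5a gave 21055 for Villin-Cre and 19496 for EP4 cKO with its brighter probe and 1227 and 1056 with the dimmer one. The log2 ratios were -0.11 and -0.22 with software errors of 0.20 and 0.21, and that of the brighter probe turned to above 0 under 2 of 5 scalings. Stat5b gave 2738 and 1991, a log2 ratio of -0.46 with a software error of 0.20, or 1.38-fold lower. It was the lowest ratio among the STAT genes and lay beyond its software error, but within 2-fold. None of these 3 neighbours passed 2-fold.

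Stat6, the factor of interleukin-4 and interleukin-13, was level at 2204 for Villin-Cre and 2146 for EP4 cKO. Its log2 ratio was -0.04 with a software error of 0.21, and it was above 0 under the other 4 of 5 scalings. Stat4, the factor of interleukin-12, was close to the detection limit. It gave 32 for Villin-Cre, not well above background, and 100.5 for EP4 cKO, well above background but under the floor of the Villin-Cre array. No fold above 1 can be given for Stat4, and neither a change nor its absence was measured.

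Socs1, the inhibitor of interferon signalling, had the highest ratio of the 9 genes. It gave 361 for Villin-Cre and 1802 for EP4 cKO. The log2 ratio was 2.32 with a software error of 0.24, or 4.99-fold, and 98.9% of all genes had a lower ratio. Its promoter is printed because it holds the interferon element core in a double copy. The stretch is the 250 bases before the start of Socs1, at chr16:10785537-10785786 on the minus strand of GRCm38.p6 and read in the direction of the gene, with GAAA repeated 2 bases apart in capitals.
Socs1: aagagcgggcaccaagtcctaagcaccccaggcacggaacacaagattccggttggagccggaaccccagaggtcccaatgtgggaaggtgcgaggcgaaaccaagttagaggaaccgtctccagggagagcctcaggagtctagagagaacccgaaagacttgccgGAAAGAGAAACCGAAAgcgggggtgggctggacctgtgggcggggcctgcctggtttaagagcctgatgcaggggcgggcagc
The copies cover bases 83 to 74 and 77 to 68 before the start and share their middle GAAA. At least 2 such matches were found in 0.225% of 32851 promoter windows of 300 bases (250 before and 50 after a start).

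Socs3, which blocks receptors of the interleukin-6 type and is itself a textbook target of STAT3, was also higher. It gave 1214 for Villin-Cre and 3925 for EP4 cKO. The log2 ratio was 1.69 with a software error of 0.21, or 3.23-fold, and 98.0% of all genes had a lower ratio. Its promoter is printed for a match to the STAT palindrome, TTC and GAA 3 bases apart, in capitals within the 250 bases before the start, at chr11:117969367-117969616 on the minus strand of GRCm38.p6.
Socs3: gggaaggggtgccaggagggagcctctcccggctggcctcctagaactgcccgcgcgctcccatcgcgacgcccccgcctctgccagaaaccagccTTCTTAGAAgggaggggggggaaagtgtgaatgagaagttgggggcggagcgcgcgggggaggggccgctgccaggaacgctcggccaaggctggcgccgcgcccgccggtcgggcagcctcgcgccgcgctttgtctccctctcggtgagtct
The match covers bases 154 to 146 before the start.

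Socs2, the inhibitor of growth hormone signalling, ran the other way from Socs1 and Socs3 without passing 2-fold. Its probes gave 3311 and 1238 for Villin-Cre and 2206 and 839 for EP4 cKO. The log2 ratios were -0.59 and -0.56 with software errors of 0.20 and 0.21, or 1.5-fold and 1.48-fold lower, so the 2 probes nearly coincide. It was the lowest ratio of the 9 genes, and 18.6% of all genes had a lower one.

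RefSeq promoter windows were given for 8 of the 9 genes, in 11 windows, since Stat4, Stat5a and Stat5b have 2 starts each. Searched on both strands, 4 of the 11 windows held a match: those of Stat2, Socs1 and Socs3, shown above, and 1 of Stat4, with GAAAGTGAAA at bases 97 to 88 before its second start (chr1:52008143-52008152). Stat3, Stat5a, Stat5b and Stat6 had no match. Of all 32851 windows, 8.30% held TTC and GAA 3 bases apart, 6.95% held them 4 bases apart and 3.44% held the repeated GAAA. At least 1 of the 3 patterns was found in 17.3% of all windows and in 36.4% of the 11 windows here, a share that rests on 4 windows. The letters were searched in these windows only, and their relation to the ratios was not tested.

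**Figure D2:**
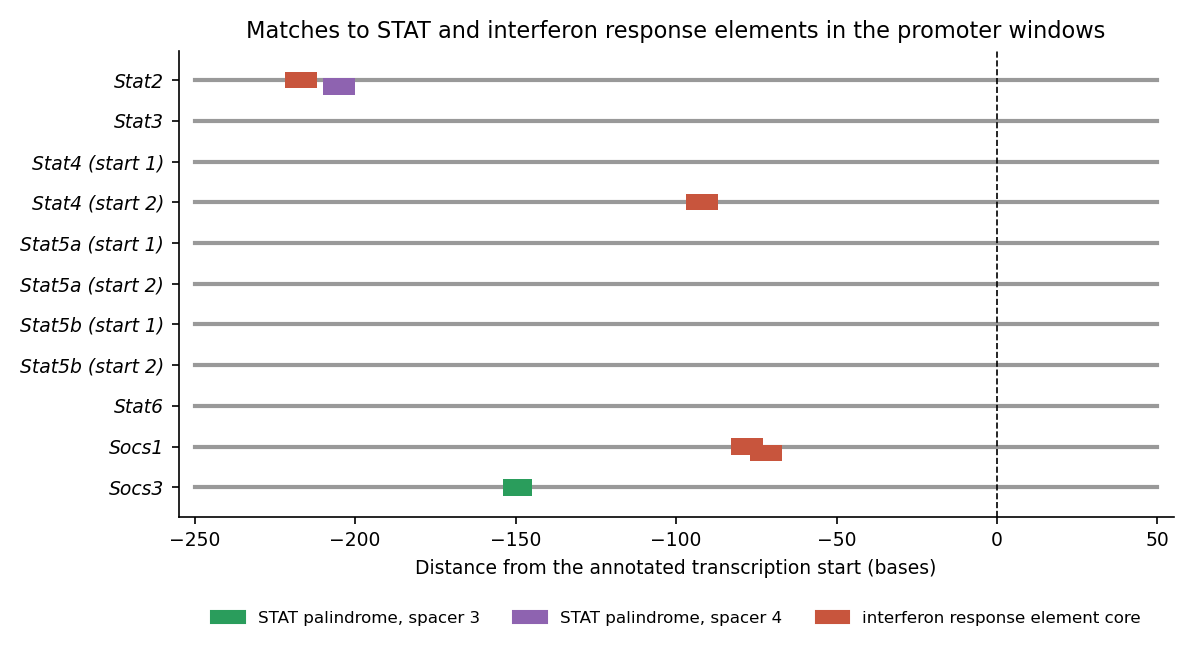
Matches to the STAT palindrome (spacer of 3 bases, green, or 4 bases, purple) and to the interferon response element core (red) in 11 RefSeq promoter windows of 8 genes, by distance in bases from the annotated start. Matches lie in the windows of Stat2, Socs1, Socs3 and the second start of Stat4.

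Apart from the 3 higher genes, the other 5 genes measured on both arrays had log2 ratios from -0.59 to 0.15, and for 3 of them, Stat3, Stat5a and Stat6, the ratio was smaller in size than its software error.

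**Figure D3:**
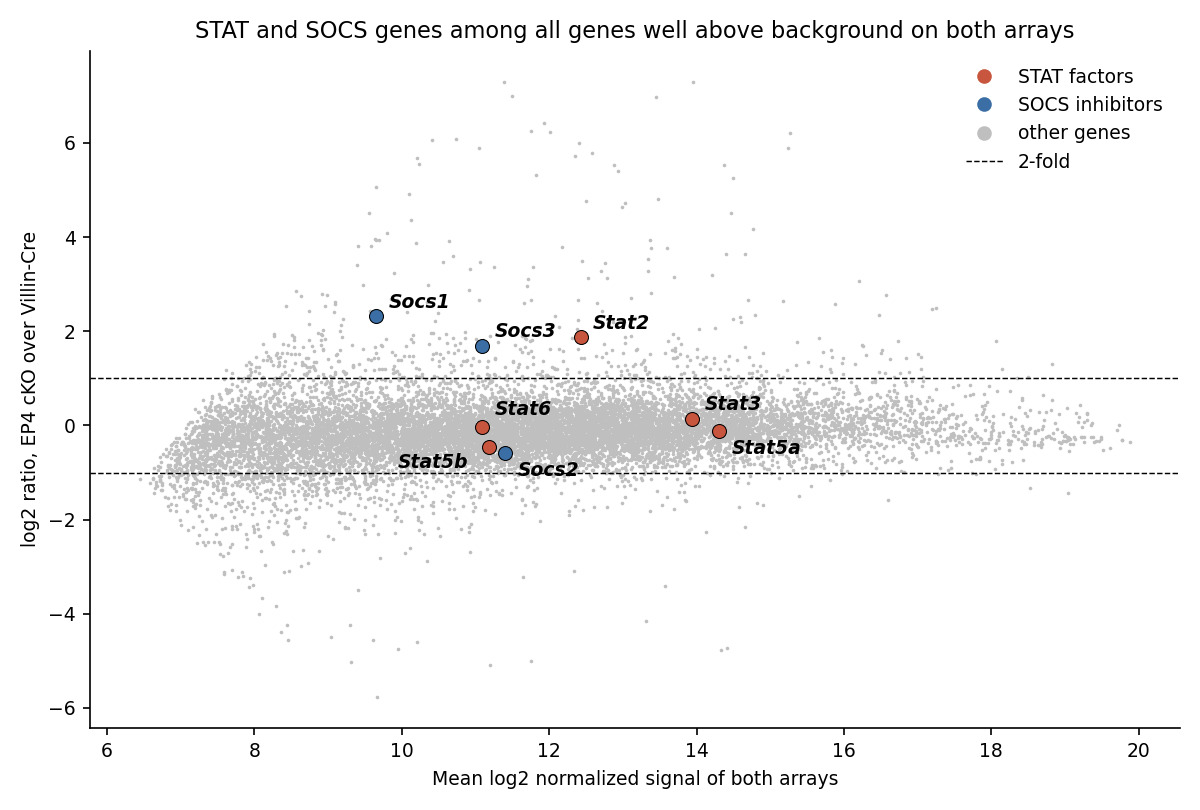
Log2 ratio of EP4 cKO over Villin-Cre against the mean log2 normalized signal, for every gene well above background on both arrays (grey), with 5 STAT genes (red) and 3 SOCS genes (blue) named; Stat4 is not drawn because its Villin-Cre signal was not well above background. Stat2, Socs1 and Socs3 lie above the dashed line at 2-fold and the other 5 lie between the dashed lines.

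The 3 higher genes were past 2-fold however the arrays were brought to a common scale, while the genes near 0 depended on it. Under the trimmed mean, the 75th percentile, a trimmed mean over all spots, loess and normexp with quantile normalization, the log2 ratio ran from 1.84 to 2.03 for Stat2, from 1.99 to 2.53 for Socs1 and from 1.61 to 1.85 for Socs3. It ran from -0.46 to -0.30 for Stat5b and from -0.59 to -0.43 for Socs2. Scaling to 350 spots of the E1A controls, which raised the median of all genes by 1.11, turned Stat5b to 0.72 and Socs2 to 0.59 and put Stat3, Stat5a and Stat6 past 2-fold, together with 50.8% of all genes. The scalings named for other genes below are those without E1A. Relative to the median of all genes, over these 5 scalings, Stat5b lay between -0.36 and -0.29 and Socs2 between -0.49 and -0.42.

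**Figure D4:**
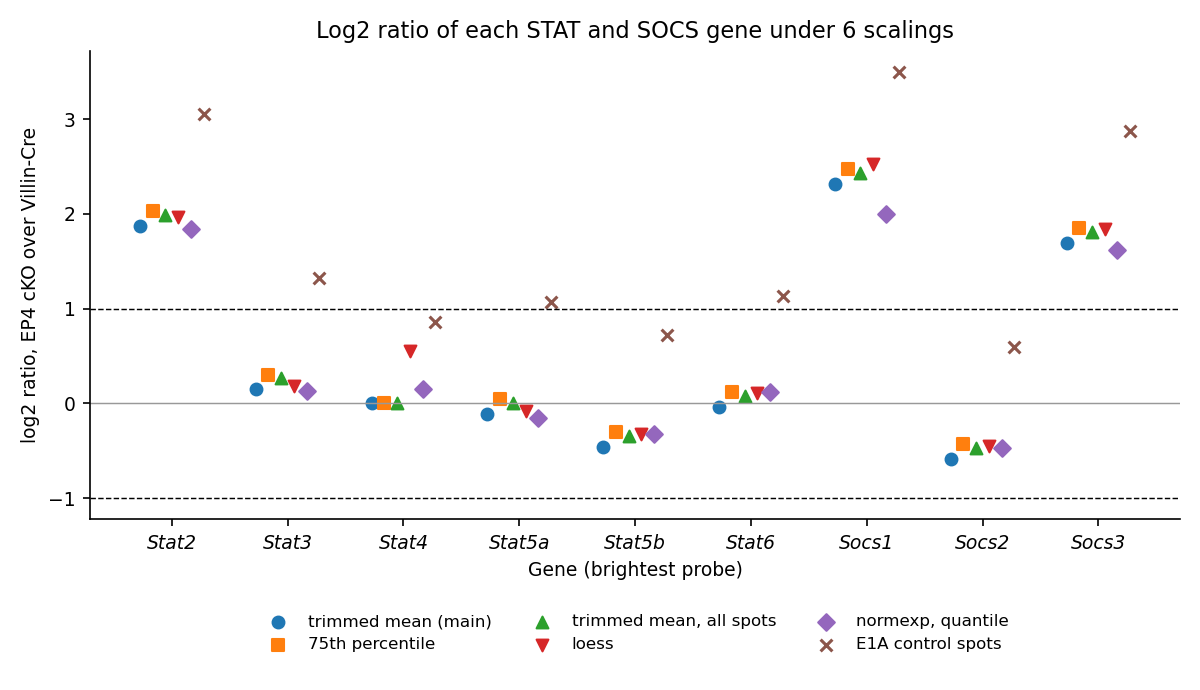
Log2 ratio of EP4 cKO over Villin-Cre for the brightest probe of each STAT and SOCS gene under 6 scalings of the 2 arrays, with dashed lines at 2-fold. Stat2, Socs1 and Socs3 are above 2-fold under all 6, and E1A scaling lifts every gene and turns Stat5b and Socs2 to above 0.

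Upstream of the STAT proteins, few ligands were measurable. Of 24 cytokines and interferons that activate STATs, 11 had a value and 13 were well above background on neither array, among them Il6, Il22, Il10, Il4 and Il13. The median of the 11 was 0.00, which is the value given to bounds of 1 or below. Over the 6 measured on both arrays it was -0.13. Of the 11, 0 were higher and 1 was lower. The lower one was Ifnb1, interferon beta, at 181 for Villin-Cre and 11.47 for EP4 cKO, at least 3.14-fold lower, although loess gave -0.93 and normexp -0.58. Ifng, interferon gamma, gave 149 and 177, a log2 ratio of 0.25, and Il27, the alpha chain of interleukin-27, gave 0.72. Il15 and Il7, which act through STAT5, gave -0.62 and 0.40, and Lif and Ctf1, ligands of the interleukin-6 type, gave -0.62 and -0.50. Under loess Lif was at 0.05 and Ctf1 at -0.28, and under normexp they were at -0.17 and -0.24.

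All 6 chains of the interferon receptors were measured and stayed within 2-fold, with a median of 0.31. Ifngr1 gave 0.26 and Ifngr2 0.36, and Ifnlr1 and Il10rb, which form the receptor of interferon lambda, gave 0.45 and 0.46. Ifnar1, a chain of the type I receptor, gave -0.55 with its brightest probe, while its 3 probes ran from -0.55 to 0.29. The receptors of the interleukin-6 type had 8 of 9 genes with a value, 0 higher and 1 lower, and a median of -0.42. The lower one was Lifr, the receptor chain of leukemia inhibitory factor, at 1115 for Villin-Cre and 57.6 for EP4 cKO. That is at least 19.3-fold lower by the floor used here, and the other probe of Lifr with a value gave -4.13. Normexp, whose offset draws dim signals together, gave a log2 ratio of -2.32 for Lifr. Il6ra gave -0.81, Il11ra1 -0.71, Lepr, the leptin receptor, -0.45, Csf3r -0.38 and Il6st, the shared chain gp130, -0.37. Osmr, the oncostatin M receptor, and Il27ra were well above background in EP4 cKO only. Osmr gave 28.1 for Villin-Cre and 246.7 for EP4 cKO, at least 1.97-fold higher, and Il27ra 73.7 and 209, at least 1.67-fold higher. The bound of Osmr passed 2-fold under the 75th percentile, the trimmed mean over all spots and loess, and that of Il27ra under loess, so the count of higher genes was 0 to 2.

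Of 22 further receptor chains that signal through STATs, 19 had a value, 2 were higher and 2 were lower. The median was 0.11, but -0.03 over the 13 measured on both arrays. Il4ra, the chain for interleukin-4 and interleukin-13 that acts through STAT6, gave 571 for Villin-Cre and 1615 for EP4 cKO, 2.83-fold higher. Il2rb, a chain for interleukin-2 and interleukin-15, gave 230 and 504, 2.20-fold higher, and its log2 ratio of 1.13 was 0.93 under normexp. The lower genes were the receptors of hormones that act through STAT5. Ghr, the growth hormone receptor, gave 1877 and 662, 2.84-fold lower, with its 3 probes from -1.5 to -0.95. Prlr, the prolactin receptor, gave 801 and 74.5, 10.8-fold lower, while its other probe with a value gave -0.50 and normexp -1.72. Il15ra gave -0.74 with its brightest probe, and its 3 probes ran from -0.74 to 0.38. Loess counted 4 higher, as the bounds of Epor and Il5ra passed 2-fold.

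The Janus kinases, which phosphorylate the STAT proteins, stayed within 2-fold in 4 of 4 cases, with a median of 0.22. Jak2 was nearest to the threshold at 1324 for Villin-Cre and 2403 for EP4 cKO, a log2 ratio of 0.86, which was 1.02 under the 75th percentile and 1.01 under loess, while its other probe gave 0.41. Jak3 gave 0.28, Jak1 0.17 and Tyk2 -0.31.

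The other SOCS-box inhibitors did not join Socs1 and Socs3: 0 of 5 were past 2-fold, with a median of -0.31. Cish, the inhibitor closest to SOCS2, gave -0.31, Socs5 -0.83, Socs7 -0.58, Socs6 0.07 and Socs4 0.19. Among 10 PIAS proteins, phosphatases and other brakes on the pathway, 1 was higher, 0 were lower and the median was -0.07. The higher one was Usp18, which blocks the type I interferon receptor, at 136 for Villin-Cre, not well above background, and 5807 for EP4 cKO, at least 42.7-fold higher. Among the phosphatases, Ptpn6 gave -0.15 and Ptpn1 0.14, among the PIAS proteins Pias4 gave -0.41 and Pias1 -0.14, and the adaptor Sh2b3 gave -0.25. Among the inhibitors examined, therefore, the genes past 2-fold were Socs1, Socs3 and Usp18, and all were higher.

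Of 8 partners of STAT factors, 2 were higher, 0 were lower and the median was 0.15. Irf9, the DNA-binding partner of STAT2, gave 4563 for Villin-Cre and 15348 for EP4 cKO, a log2 ratio of 1.75, and its other probe gave 1.77. Nmi, a STAT-interacting protein that is itself induced by interferon, gave 10856 and 29701, a log2 ratio of 1.45. The co-activators Crebbp and Ep300 gave 0.49 and 0.13, and Hdac1 gave 0.16. Stat2 and Irf9 thus differed between the arrays by log2 ratios of 1.88 and 1.75.

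Textbook targets were read for each STAT. The 10 targets of STAT2 with IRF9 that had a value, of 12, were all higher, and the median log2 ratio was 4.77, beside -0.10 over all genes. Over the 7 measured on both arrays it was 3.97, the value of Rsad2, whose other probe gave 1.69. Oas2 gave 208 for Villin-Cre and 14046 for EP4 cKO, Ifit3 177 and 8279, Isg15 3118 and 144026, Rsad2 201 and 3137, and Irf7, the factor that amplifies type I interferon, 37247 and 252885. Usp18 stands in this list as well as among the inhibitors. Normexp gave smaller log2 ratios where Villin-Cre was dim, 5.18 for Oas2, 4.56 for Ifit3, 4.30 for Usp18 and 3.19 for Rsad2, with 10 of 10 still higher.

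The targets of the other STATs were mixed. Of 17 targets of STAT3, 14 had a value, 4 were higher and 0 were lower, with a median of 0.57. The higher ones were Il4ra and, as bounds, Lbp, a binder of bacterial lipopolysaccharide, at least 8.07-fold, the antibacterial lectin Reg3g, at least 4.15-fold, and Lcn2, which withholds iron from bacteria, at least 2.84-fold. With Osmr as above, 5 were higher under the 75th percentile, the trimmed mean over all spots and loess. Over the 9 targets measured on both arrays 1 was higher and the median was 0.44. The other targets with a value were well above background in EP4 cKO only, and such bounds cannot fall below 0. Pim1 gave 0.84, Bcl2l1 0.66, Mcl1 0.47 and Timp1 -0.65, the last at -0.10 under loess and -0.12 under normexp. Normexp put the bounds at log2 ratios of 2.22 for Lbp and 1.37 for Reg3g. Of 9 targets of STAT5, 7 were measured on both arrays and 0 were past 2-fold, with a median of 0.26. They include Socs2 and Cish at -0.59 and -0.31 and the cell cycle inhibitor Cdkn1a at 0.86, which was 1.02 under the 75th percentile. Of 8 targets of STAT4, 3 were measured on both arrays and within 2-fold: Ifng at 0.25, Gadd45g at 0.06 and Furin at 0.02. Tbx21 and Il12rb2 were well above background in EP4 cKO only, and the bound of Tbx21, 0.31, was 1.05 under loess.

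Targets of STAT6 changed in both directions. Of 14 genes 8 had a value, 4 were higher and 2 were lower, and the median was 0.78, but -0.05 over the 5 measured on both arrays. Retnlb, a goblet cell product, gave 95.9 for Villin-Cre, not well above background, and 275441 for EP4 cKO, at least 2197-fold higher. Clca1, another goblet cell product, gave a log2 ratio of 1.31, Il4ra 1.5, and Mrc1, a receptor of macrophages, was at least 4.31-fold higher. Normexp gave log2 ratios of 9.97 for Retnlb and 1.41 for Mrc1. Retnla gave -1.55 and Cdh26 -1.17, and under normexp these were -0.95 and -0.93, within 2-fold. Il13ra1 gave -0.05, and loess counted 5 higher, as the bound of Gata3 passed 2-fold. Stat6 itself was within 2-fold, at -0.04.

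**Figure D5:**
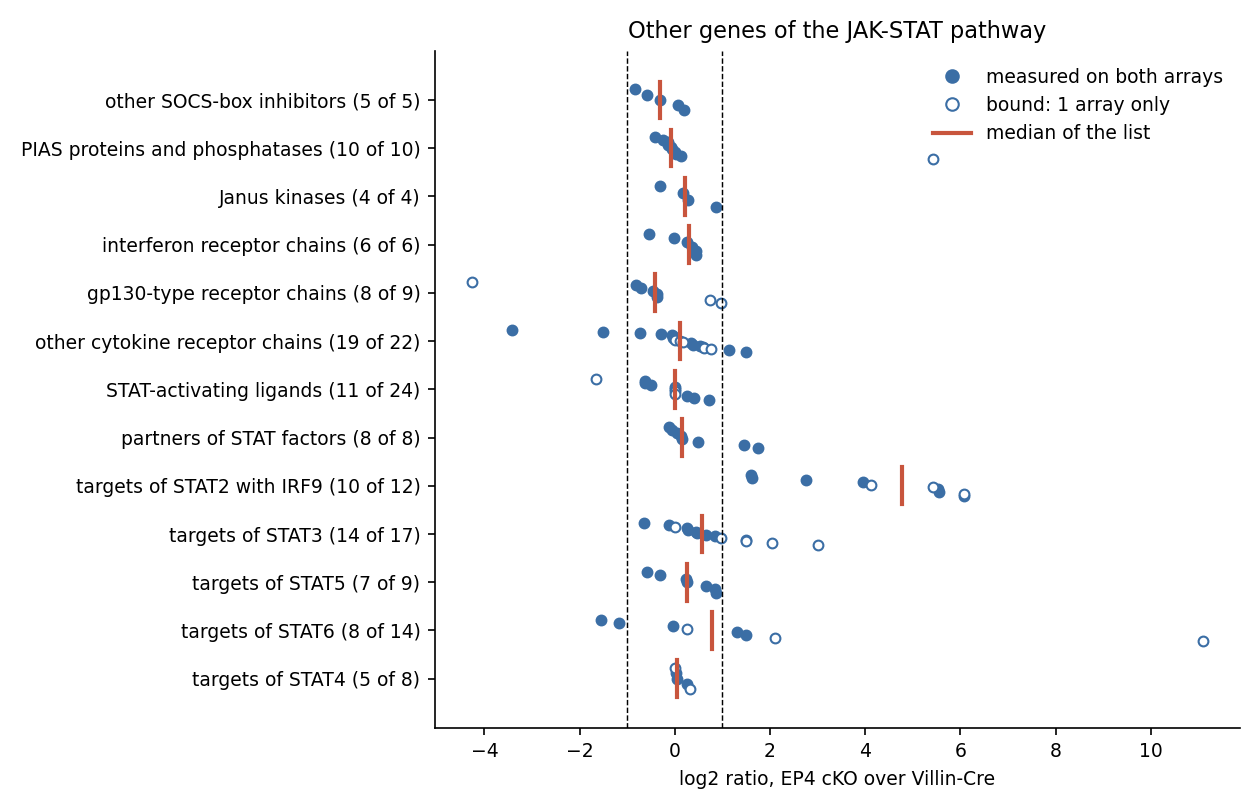
Log2 ratio of EP4 cKO over Villin-Cre for genes of the pathway in 13 lists, with the number of genes with a value in brackets, the median of each list as a red bar and 2-fold as dashed lines. Open circles are bounds from probes well above background on 1 array only, and the list of STAT2 with IRF9 lies wholly above 2-fold.

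STAT and SOCS genes are also expressed by cells other than the epithelium, so marker levels are given beside them. Markers of all leukocytes had 4 of 4 genes with a value, 1 higher. Their signals summed to 1626 in Villin-Cre and 3553 in EP4 cKO, with most of the rise from Coro1a, at 828 and 2394. Coro1a gave a log2 ratio of 1.53 and Ptprc, the common leukocyte antigen CD45, 0.97, while Laptm5 gave -0.58, or -0.13 under normexp, and the bound of Itgb2 was 0.37, or 1.11 under loess. Ptprc passed 2-fold under 3 of the 4 other scalings, with 1.12 under the 75th percentile. Markers of T cells had 1 of 6 higher and summed signals of 7836 and 7906. The higher one was Cd3g at 1.28, which was 0.87 under normexp, and Thy1 gave 0.29 and Cd3e -0.10. Cd2 gave 0.91 and passed 2-fold under the 75th percentile, the trimmed mean over all spots and loess, which counted 2 higher. Cd3d gave -0.79, while its other probe gave 0.90. The normexp value of Cd3d was also 0.90, so it cannot be counted as a measure apart from the other probe. Macrophage and dendritic cell markers had 4 of 6 with a value, 2 of them higher, Itgax and, as a bound, Mrc1 (1 of the 3 measured on both arrays, with a median of -0.09), and sums of 5490 and 4212, with Csf1r at -0.79, Cd68 at -0.09, and Adgre1 and Lyz2 well above background on neither array. Neutrophil markers had 3 of 5 with a value, 2 of them higher, S100a9 and, as a bound, S100a8 (1 of the 2 measured on both arrays), and sums of 106825 and 82672, nearly all from Csf3r. Cxcr2 was too dim on both arrays. B and plasma cell markers had 3 of 5 with a value and 0 past 2-fold, with Jchain at 0.21, the bound of Cd79b at 0.31, or 1.16 under loess, and Cd79a and Ms4a1 well above background on neither array.

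The epithelial markers had 6 of 6 genes measured, with 1 higher, Krt20, at 1.80, and a median of 0.29. Epcam gave 0.56, Vil1 0.52, Cdh1 -0.10 and Cdx2 -0.25, and all 6 were well above background on both arrays, so RNA of epithelium was present on each. Fibroblast markers were lower in 4 of 4 genes with a value, with a median log2 ratio of -4.77. Their signals summed to 11447 in Villin-Cre and 249.7 in EP4 cKO, with Dcn at 6006 and 110 and Col1a2 at 3613 and 111. Col1a1 and Lum were well above background in Villin-Cre only, at least 22.7-fold and 8.91-fold lower by the floor (log2 ratios of -2.47 and -1.33 under normexp), and Pdgfra on neither array. Of these 5 fibroblast markers, 2, Dcn and Col1a2, were thus well above background in EP4 cKO, at low signals. Smooth muscle markers had 4 of 5 with a value and endothelial markers 2 of 4, with 0 past 2-fold in each. Actg2 gave 0.72, Tagln 0.38, Pecam1 -0.18 and Vwf 0.07. The 2 probes of Acta2 with a value gave 0.62 and -0.58. Myh11, Cdh5 and Kdr were well above background on neither array. Among the genes near 0 outside the members, Cd3e, Cd68, Cdh1, Pecam1, Il13ra1, Pias1 and Ptpn6 also turned sign under at least 1 scaling. The part of these differences in cell markers in the ratios of Stat2, Socs1, Socs3 and the other genes was not tested.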

How the data were processed

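RNA of colon tissue was measured on 2 arrays, 1 per genotype, and each was assigned to its genotype by its labels. The authors deposited scanner intensities from Feature Extraction (12.0.3.1 in the file headers, 11.5.1.1 in the labels), background-subtracted and detrended, but not scaled between arrays. Both arrays came from the same slide and scan. The paper gives n = 3 for each genotype, and no other array was analysed here.

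Control spots and outlier spots (147 for Villin-Cre and 126 for EP4 cKO) were left out, the spots of a probe were averaged, and each array was scaled to a mean of 2500 after trimming 2% of the probes at each end, with factors of 3.45 and 2.68. No spot was saturated. Bounds of 1 or below were given a log2 ratio of 0. Signal over background and the number of arrays limit the precision. Probes were named through RefSeq accessions without version, and 32989 of 56593 (58.3%) matched a gene of GRCm38.p6. The array grid names mm9, so coordinates are given only for the promoter windows.

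All 9 members are named, as are, per list, at most 5 genes that changed most in size among those measured on both arrays, and genes of a count of 5 or fewer. The ligands without a value, the bounds near 2-fold and the markers near background were picked after their values were seen. The members, lists and tests were chosen with earlier results of these data known. Members were matched by symbol. The alternatives were other scalings (75th percentile, trimmed mean over all spots, loess with span 0.3, normexp with offset 50 on the median signal followed by quantile normalization, E1A control spots), other filters and floors, other probe rules, and thresholds of 1.5-fold and 3-fold. The steps were tested on simulated data. Software was limma 3.58.1 in R 4.3.3 for normexp, statsmodels 0.14.6 for loess, and pandas 2.3.3, numpy 2.4.6 and matplotlib 3.10.9 in Python 3.11.15 for the rest. Some single genes are not reported.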

Additional observations from a re-analysis of the deposited data

How the results depend on the processing

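The count of 3 genes higher became 6 when the arrays were scaled to the E1A controls, and the count of 0 genes lower became 1, Socs2, at a threshold of 1.5-fold. Under E1A scaling the log2 ratios were 3.05 for Stat2, 1.32 for Stat3, 1.06 for Stat5a, 0.72 for Stat5b, 1.14 for Stat6, 3.50 for Socs1, 0.59 for Socs2 and 2.87 for Socs3, since that scaling raised the median of all genes by 1.11. The mean of all probes gave 0.94 for Stat2, within 2-fold, and -0.11 for Stat3, and the dimmer probes alone gave 0.00 and -0.38. With dim signals kept as they were, Stat4 gave 1.65 with a software error of 1.48, which counted it as higher. Normexp gave 1.99 for Socs1. Of 84 values of single genes under the alternatives, the other 70 moved by less than the software error. Many of these could not move. Other filters and floors leave a gene measured on both arrays as it was, and averaging leaves a gene with 1 probe. Moves of Stat4 were held against its error of 1.48. The count of 70 thus says little of how robust the values are.

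Over all genes, the counts higher and lower were 717 and 1171 under the main setting, 1144 and 728 under loess, 603 and 396 under normexp, 7453 and 283 under E1A scaling, 1172 and 7253 without a filter on dim probes, 519 and 803 among genes measured on both arrays, 1447 and 2740 at 1.5-fold and 325 and 548 at 3-fold. The median of all genes rose by 0.10 under the 75th percentile, the trimmed mean over all spots and normexp, and by 0.13 under loess. No replicate could be left out with 1 array per genotype. No paired analysis was possible because each group has 1 array and no test was made.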
